A study of Mus musculus with 2 samples.

Results

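The lysosomal genes described here are 42 genes of the mouse lysosome, chosen by gene symbol. The list was made with earlier results of these data known. All 42 were found among the 32285 genes of the deposited matrices. By role they are 11 cathepsins, 6 membrane proteins, 5 glycosidases, 7 lipid and other hydrolases with their helpers, 12 subunits or accessory proteins of the vacuolar proton pump (V-ATPase), and the transcription factor Tfeb. The cathepsins are counted with legumain (Lgmn), an asparaginyl endopeptidase that works beside them.

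The cells were prepared from brain at an age of 18 months, and the labels name C57BL/6J as the strain. CD200R1-/- mice gave the library labelled KO, and wild-type mice gave the library labelled WT. No mouse was treated, and although the title of the study names Parkinson's disease, the labels give no disease model. Perfused brains were dissociated, CD11b+ cells were taken with magnetic particles, and each genotype was sequenced as 1 droplet library that counts the 3′ end of each transcript. The labels do not state how many mice went into a library, which exons the deletion removed, or whether the deletion was limited to a cell type.

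Lysosomes are acidic compartments in which proteins, lipids and sugar chains taken up or discarded by a cell are degraded. The V-ATPase acidifies them, soluble hydrolases digest their content, and heavily glycosylated membrane proteins such as LAMP1 and LAMP2 line and protect the limiting membrane. In the brain, microglia and the macrophages of its borders are the professional phagocytes, and CD200R1 is an inhibitory receptor of myeloid cells whose ligand CD200 is carried by neurons and other cells. TFEB drives many lysosomal genes by binding promoter elements built around the palindrome CACGTG.

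With 1 library per group there is no replicate, so no test was made, and no p-value or count of changed genes with an error rate can be given. Levels are unique molecular identifiers (UMIs, counted molecules) summed over the cells of a class in a library and given as counts per 1000000 UMIs of those cells (CPM). They are 3′ tags and were not divided by gene length. Ratios are KO over WT, with exact 95% intervals that cover counting error only, not the spread between mice or between preparations. Log2 ratios are of CPM + 10 in KO over CPM + 10 in WT. A member was called higher or lower when the larger of these levels exceeded the smaller by at least 25%, and was measured in a class with at least 50 UMIs over both libraries. The same count over all measured genes is given beside it as the background.

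The KO library held 131196245 UMIs in 19159 barcodes, and the WT library 127429919 UMIs in 18228. After filters 17064 KO cells and 16460 WT cells remained, and 103 barcodes occurred in both libraries. Clusters were made without the lysosomal genes and named by fixed markers, which gave 13 classes of at least 50 cells in each library. Every marker of a class was detected in it in both libraries, while 32.1% of KO cells and 37.9% of WT cells stayed unnamed. The CD11b selection let other cells through: microglia-like cells were 21.6% of KO cells and 18.8% of WT cells, and endothelial-like cells were 13.7% and 13.4%. Cd200r1, the targeted gene, did not separate the libraries, with 12.0 CPM over all KO cells and 12.8 CPM over all WT cells (ratio 0.943, 0.877 to 1.02). In the macrophage class it was lower, with 26.4 CPM in KO and 41.96 CPM in WT (0.629, 0.488 to 0.810), and in T cell-like cells it was higher, with 60.8 CPM in KO and 34.1 CPM in WT (1.78, 1.22 to 2.63). The exons deleted are not given in the sources used here, so a 3′ tag may check nothing about the genotype, and the groups are called by their labels throughout.

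The promoters of 4 members are shown first, because these genes carry the main values below: Ctsd and Ctss are the most abundant members in microglia-like cells, Lamp1 is the textbook marker of the lysosomal membrane, and Atp6v1a was the only member lower in the macrophage class. Each stretch runs from 250 bases before to 50 bases after a transcription start, as listed by RefSeq on GRCm38.p6, and the capitals mark the core motif CACGTG. Ctsd lies on the minus strand at chr7:142387778-142388077, Lamp1 on the plus strand at chr8:13158911-13159210, Atp6v1a on the minus strand at chr16:44139210-44139509, and Ctss on the plus strand at chr3:95526536-95526835.
Ctsd: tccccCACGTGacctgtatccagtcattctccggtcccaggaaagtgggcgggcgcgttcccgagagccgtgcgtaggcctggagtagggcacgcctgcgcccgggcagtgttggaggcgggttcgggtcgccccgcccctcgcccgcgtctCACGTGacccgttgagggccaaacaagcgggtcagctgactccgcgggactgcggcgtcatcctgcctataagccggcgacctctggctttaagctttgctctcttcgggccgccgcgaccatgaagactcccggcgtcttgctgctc
Lamp1: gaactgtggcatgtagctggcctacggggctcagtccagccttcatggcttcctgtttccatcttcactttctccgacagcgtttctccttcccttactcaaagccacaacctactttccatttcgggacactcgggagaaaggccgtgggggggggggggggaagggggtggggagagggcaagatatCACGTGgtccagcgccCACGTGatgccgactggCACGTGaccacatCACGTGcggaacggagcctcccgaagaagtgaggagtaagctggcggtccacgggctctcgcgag
Atp6v1a: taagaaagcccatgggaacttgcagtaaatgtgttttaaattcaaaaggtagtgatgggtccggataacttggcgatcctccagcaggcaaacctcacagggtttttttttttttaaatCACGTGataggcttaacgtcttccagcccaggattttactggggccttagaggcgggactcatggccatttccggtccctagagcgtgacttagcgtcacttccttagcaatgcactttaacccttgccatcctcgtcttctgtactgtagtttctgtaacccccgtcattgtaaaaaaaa
Ctss: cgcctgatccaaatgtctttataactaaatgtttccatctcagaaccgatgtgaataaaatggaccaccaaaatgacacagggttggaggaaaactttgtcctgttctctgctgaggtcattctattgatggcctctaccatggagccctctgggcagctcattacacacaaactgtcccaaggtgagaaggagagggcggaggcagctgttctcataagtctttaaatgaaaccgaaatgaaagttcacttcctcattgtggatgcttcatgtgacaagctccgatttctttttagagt
The Lamp1 window holds 4 copies of the core motif, the Ctsd window 2, the Atp6v1a window 1 and the Ctss window 0.

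Of the 42 members, 36 had a promoter entry, and 12 of these (33.3%) held the core motif CACGTG, which reads the same on both strands. Over all 27025 genes with an entry the share was 8.09%. The longer form TCACGTG, searched on both strands and containing the core, was present in 10 of the 36 members (27.8%) and in 4.29% of all genes. The 12 members with the core are Ctsa, Ctsd, Ctsf, Ctsl, Lgmn, Lamp1, Mcoln1, Glb1, Gaa, Atp6v0b, Atp6v0d1 and Atp6v1a. They did not move apart from the rest between the libraries. In microglia-like cells the median log2 ratio was 0.01 for the 12 members with the motif and -0.00 for the 23 measured members whose entry lacks it, and in the macrophage class the medians were -0.03 and 0.02. A match of letters is a description of these windows, and nothing about TFEB binding was measured.

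**Figure D1:**
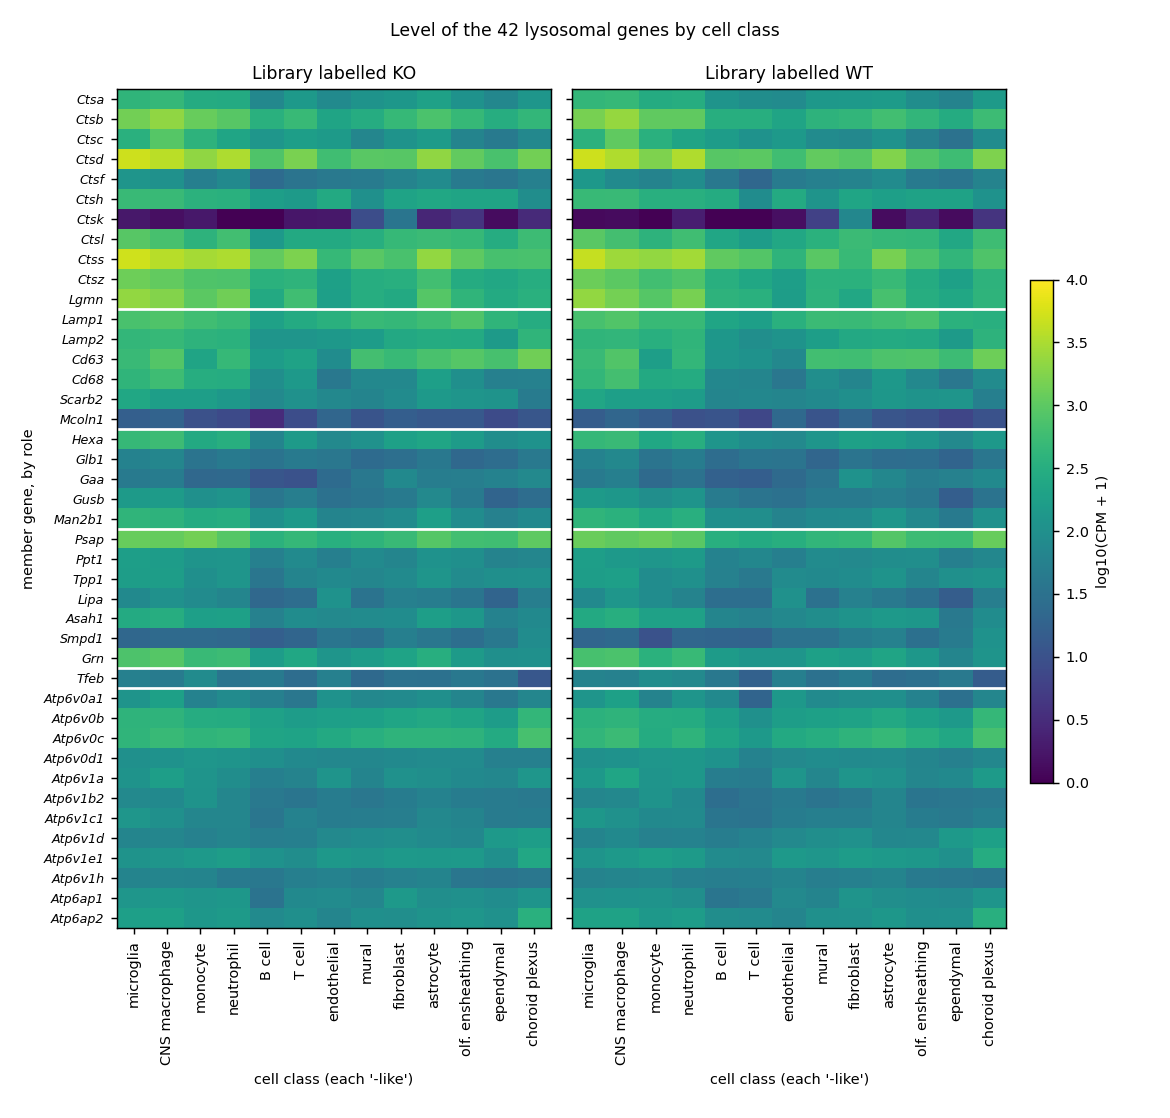
Level of each of the 42 lysosomal genes in each of the 13 cell classes, as log10 of (CPM + 1), with the KO library in the left panel and the WT library in the right. Rows are grouped by role; the brightest cells of each panel are Ctsd and Ctss in microglia-like cells, at 4945 and 5050 CPM in KO and 4957 and 4453 CPM in WT.

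The lysosomal genes were most abundant in the phagocytes. Summed over the 42 members they took up 2.53% of all UMIs in KO microglia-like cells and 2.48% in WT microglia-like cells. In the CNS-associated macrophage-like cells, named by markers such as Mrc1 and Cbr2, the shares were 2.42% in KO and 2.24% in WT. Endothelial-like cells had the lowest sums, with 0.548% in KO and 0.533% in WT. The members fell into blocks by class of highest level, and 14 of them peaked in the macrophage class in both libraries, 10 in microglia-like cells, 7 in choroid plexus-like cells, 3 in monocyte-like cells, 2 in fibroblast-like cells and 1 in endothelial-like cells. Psap, Tfeb and Atp6v1b2 were the monocyte members, Ctsk and Gaa the fibroblast ones and Mcoln1, a calcium channel of the lysosomal membrane, the endothelial one. Gusb (beta-glucuronidase), Lipa, Atp6v0d1, Atp6v1h and Atp6ap1 had a different top class in each library. Counting intervals set the top class apart from the next one in both libraries for 9 of the macrophage members, 8 of the microglial ones and all 7 of the choroid plexus ones.

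The microglial block is led by proteases of the lysosomal lumen. Ctsd, the main aspartic protease of the lysosome, had 4945 CPM in KO and 4957 CPM in WT microglia-like cells, against 3833 CPM in KO and 3322 CPM in WT cells of the macrophage class. Ctss, a cysteine protease that trims the invariant chain of MHC class II, had 5050 CPM in KO and 4453 CPM in WT microglia-like cells. Lgmn had 2271 CPM in KO and 2239 CPM in WT. Ctsz, Ctsl, Ctsf, Scarb2 (the receptor that carries glucocerebrosidase to the lysosome), Man2b1 (lysosomal alpha-mannosidase), Ppt1 (palmitoyl-protein thioesterase) and the pump subunit Atp6v1c1 were also highest in microglia-like cells.

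The macrophage block holds other cathepsins and the macrophage sialoglycoprotein Cd68. Ctsb, a cysteine protease, had 2142 CPM in KO and 2369 CPM in WT cells of the macrophage class, against 1386 CPM in KO and 1517 CPM in WT microglia-like cells. Ctsc, which activates the serine proteases of granules, had 866 CPM in KO and 1048 CPM in WT. Cd68 had 574 CPM in KO and 627 CPM in WT. The same class was highest in both libraries for the peptidases Ctsa, Ctsh and Tpp1, the membrane proteins Lamp1 and Lamp2, Hexa (a subunit of beta-hexosaminidase), Glb1 (beta-galactosidase), Asah1 (acid ceramidase), Grn, which is processed to granulins in the lysosome, and the pump subunits Atp6v0a1 and Atp6v1a.

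Among the pooled classes, choroid plexus-like cells, the epithelium that makes cerebrospinal fluid, led for much of the proton pump rather than for the hydrolases. Atp6v0c, the proteolipid of the membrane ring, had 679 CPM in KO and 686 CPM in WT choroid plexus-like cells. Atp6ap2, an accessory subunit also known as the prorenin receptor, had 351 CPM in KO and 335 CPM in WT. Atp6v0b, Atp6v1d and Atp6v1e1 were likewise highest there, as were the tetraspanin Cd63, with 1336 CPM in KO and 1289 CPM in WT, and Smpd1 (acid sphingomyelinase), with 88.6 CPM in KO and 109 CPM in WT. The macrophage class held sub-clusters, described below, with higher levels of some of these genes. The one of 47 KO and 58 WT cells had 1699 CPM of Cd63 in KO and 1608 CPM in WT. Its Atp6v0c was 833 CPM in KO and 784 CPM in WT. The Lyve1-high one had 458 CPM of Atp6v0b in KO and 464 CPM in WT, close to choroid plexus-like cells (450 and 459). Both were below choroid plexus-like cells for Atp6ap2, Atp6v1d, Atp6v1e1 and Smpd1. Ctsk, the collagen-degrading cathepsin of osteoclasts, was highest in fibroblast-like cells, with 34.9 CPM in KO and 71.3 CPM in WT. Mural-like cells had 7.80 CPM of it in KO and 5.02 CPM in WT, and microglia-like cells 31 UMIs in all in KO and 10 in WT. The heat map of levels shows these blocks in both libraries.

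In microglia-like cells, the largest class with 3691 KO and 3089 WT cells, the lysosomal genes hardly differed between the libraries. Of the 41 measured members 0 were higher and 0 lower by 25%, and Ctsk was not measured. Over all 13938 measured genes, 1.22% were higher and 1.39% lower. The median log2 ratio was 0.00 over the members and 0.005 over all genes, and 21 of the 41 members lay above 0. Summed, the members had 25310 CPM in KO and 24840 CPM in WT, a ratio of 1.019 (1.016 to 1.022).

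Behind that near-equality the proteases diverged from each other by more than counting error. Ctss was higher in KO, with 190835 UMIs in KO and 163908 in WT (ratio 1.13, 1.13 to 1.14). Ctsb was lower, with 1386 CPM in KO and 1517 CPM in WT (0.913, 0.902 to 0.924). Ctsd differed by less than its counting interval (0.998, 0.991 to 1.00). The other abundant members stayed close to 1: Ctsz had 1292 CPM in KO and 1280 CPM in WT, Psap (the precursor of the saposins that help lipid hydrolases) 1187 CPM in KO and 1213 CPM in WT, and Ctsl 917 CPM in KO and 941 CPM in WT. Grn (progranulin) was slightly higher, with 750 CPM in KO and 695 CPM in WT (1.08, 1.06 to 1.10), while Lamp1 had 699.5 CPM in KO and 682 CPM in WT and Cd63 510.5 CPM in KO and 513.5 CPM in WT.

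The V-ATPase showed the widest spread at both ends. Atp6ap1, an accessory subunit needed for pump assembly, had 126 CPM in KO and 106 CPM in WT (1.19, 1.14 to 1.24; log2 0.23). Atp6v1b2, a subunit of the cytosolic sector, had 75.2 CPM in KO and 67.4 CPM in WT (log2 0.14). At the low end stood Atp6v1a, which carries the site of ATP hydrolysis, with 111 CPM in KO and 133 CPM in WT (0.833, 0.799 to 0.868; log2 -0.24), Atp6ap2 with 177 CPM in KO and 202 CPM in WT (log2 -0.18), and Ctsf with 119 CPM in KO and 133 CPM in WT (log2 -0.15). Subunits of the same complex thus lay on both sides of 1, and the 12 pump genes summed to 1886 CPM in KO and 1912 CPM in WT (0.987, 0.977 to 0.997). By role, the cathepsins summed to a ratio of 1.025 (1.021 to 1.028), the membrane proteins to 1.01, and the glycosidases and the lipid and other hydrolases to 1.015 each. Tfeb had 55.1 CPM in KO and 60.1 CPM in WT (0.916, 0.862 to 0.973).

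The ratio of Ctss in the pooled class was uneven across microglial sub-clusters, not all of which are given here. In the sub-cluster with 1445 KO and 953 WT cells it had 5194 CPM in KO and 4328 CPM in WT (1.20, 1.19 to 1.21). In those with 1356 KO and 357 WT cells, and with 209 KO and 1302 WT cells, the ratios were 1.02 (0.996 to 1.04) and 1.07 (1.05 to 1.10). In the one with 620 KO and 358 WT cells Ctss had 4737 CPM in KO and 4592 CPM in WT. The cells of the libraries were spread unevenly over these sub-clusters, so the pooled ratio mixes differences within and between them.

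**Figure D2:**
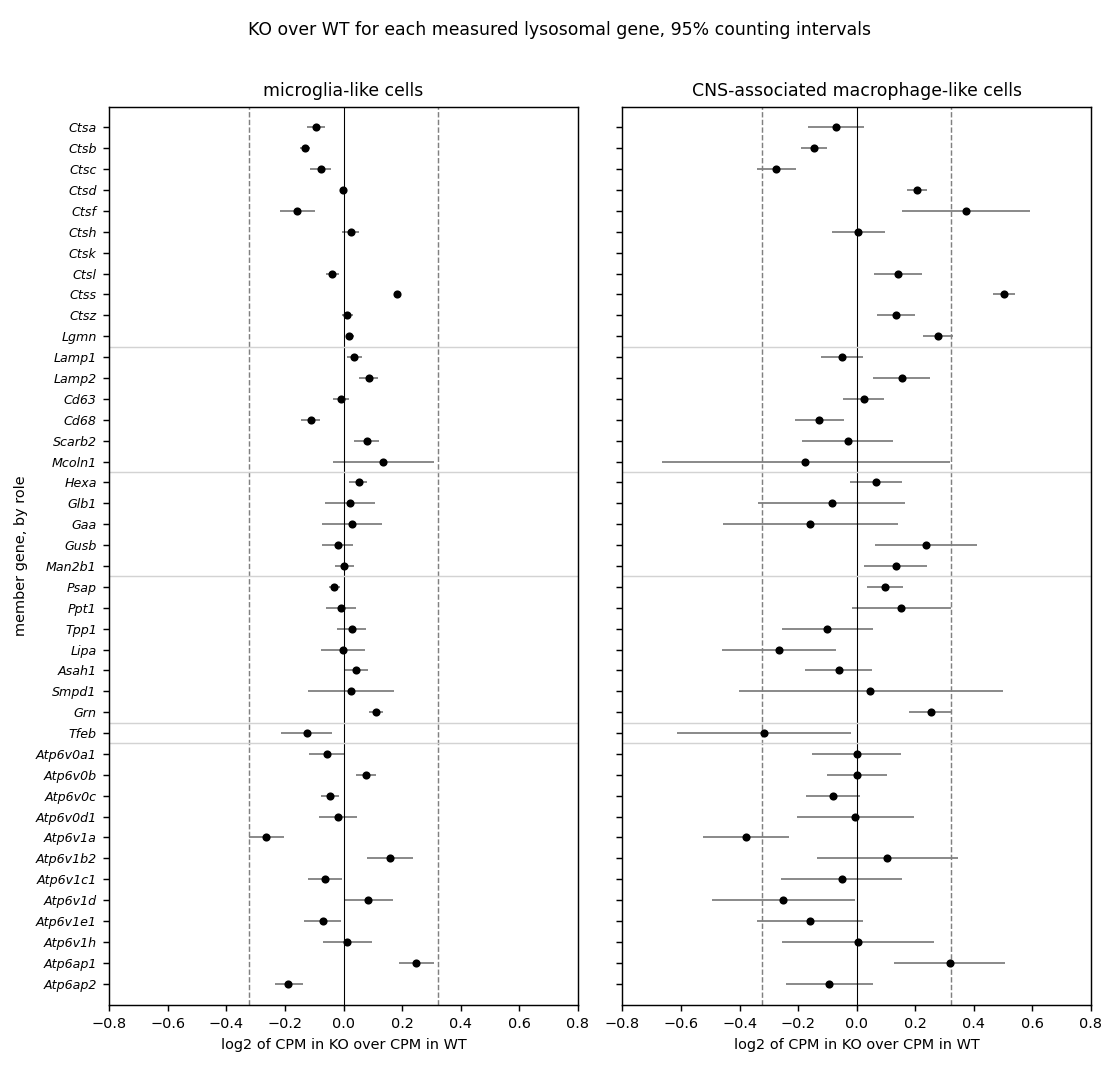
Log2 ratio of KO over WT for each lysosomal gene in microglia-like and CNS-associated macrophage-like cells, with 95% counting intervals as bars and the 25% threshold as dashed lines. Points are drawn without the added 10 CPM. No member passes a dashed line in microglia-like cells. In the macrophage class Ctss and Ctsf lie above (log2 0.50 and 0.34 with 10 CPM added) and Atp6v1a below (log2 -0.36 with 10 CPM added).

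The CNS-associated macrophage-like class, 428 KO and 338 WT cells, had more cathepsin RNA in the KO library when its cells were pooled and, in sum, slightly less RNA of the proton pump. Within its 5 sub-clusters the cathepsin sum was higher in KO in 2, lower in 1, and had an interval that holds 1 in 2. Of 41 measured members, 2 were higher and 1 was lower, beside 5.28% of all 9946 measured genes higher and 8.45% lower. The median log2 ratio of the members was 0.00 and 20 of the 41 lay above 0. The sum was 24220 CPM in KO and 22410 CPM in WT (1.08, 1.07 to 1.09), and it was carried by the cathepsins, at 15200 CPM in KO and 13530 CPM in WT (1.12, 1.11 to 1.14). The pump genes summed to 2119 CPM in KO and 2211 CPM in WT (0.959, 0.930 to 0.988), and the membrane proteins to a ratio of 0.991 (0.965 to 1.02).

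Ctss had the largest ratio, with 3721 CPM in KO and 2627 CPM in WT (1.42, 1.38 to 1.45). Ctsf, a cysteine protease, had 105 CPM in KO and 81.0 CPM in WT (1.30, 1.11 to 1.51). Atp6v1a was lower, with 173.5 CPM in KO and 226 CPM in WT (0.769, 0.695 to 0.851). The member next in height was Atp6ap1, within the threshold on the scale used, with 137 CPM in KO and 109.7 CPM in WT (log2 0.29). Ctsc (866 CPM in KO, 1048 CPM in WT, log2 -0.27) and Tfeb (44.5 CPM in KO, 55.5 CPM in WT, log2 -0.26) were next at the low end. In the pooled class the abundant proteases split: Ctsd had 3833 CPM in KO and 3322 CPM in WT (1.15, 1.13 to 1.18) and Lgmn 1794 CPM in KO and 1479 CPM in WT (1.21, 1.17 to 1.26), whereas Ctsb had 2142 CPM in KO and 2369 CPM in WT (0.904, 0.877 to 0.932). Within the Lyve1-high sub-cluster the ratio was 0.975 (0.911 to 1.04) for Ctsd, 1.00 (0.901 to 1.11) for Lgmn and 0.8995 (0.847 to 0.955) for Ctsb. In the sub-cluster of 150 KO and 78 WT cells Ctsd gave 1.01 (0.983 to 1.04), Lgmn 1.09 (1.05 to 1.14) and Ctsb 0.904 (0.866 to 0.944). Grn had 879 CPM in KO and 737 CPM in WT, Psap 1127 CPM in KO and 1054 CPM in WT, Ctsz 1077 CPM in KO and 982 CPM in WT, Cd63 835 CPM in KO and 821 CPM in WT, and Lamp1 799.5 CPM in KO and 828 CPM in WT.

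Microglial genes moved with these values. The 10 microglial markers, all detected in both libraries, summed to 6667 CPM in KO and 5286 CPM in WT cells of the macrophage class, or 65.3% and 53.2% of their level in microglia-like cells, while the 10 macrophage markers summed to 5147 CPM in KO and 6565 CPM in WT. When the sub-clusters led by microglial or endothelial genes were left out, a choice made after the data were seen, the summed ratio was 0.995, and the log2 ratio of Ctss was 0.345, of Ctsf 0.23, of Atp6ap1 0.04, of Ctsc -0.13 and of Atp6v1a -0.34, so that Ctsf no longer passed the threshold. With cells named by their own marker UMIs instead of by cluster, the summed ratio was 0.976, and the log2 ratio of Ctss was 0.40 and of Ctsf -0.12. Ctss was higher within 3 of the 5 sub-clusters. In the Lyve1-high sub-cluster, 135 KO and 121 WT cells, it had 2366 CPM in KO and 1803 CPM in WT (1.31, 1.22 to 1.41). In the sub-cluster with most microglial RNA, 150 KO and 78 WT cells, it had 4354 CPM in KO and 3380 CPM in WT (1.288, 1.248 to 1.329), and in another of 86 KO and 57 WT cells 2599 CPM in KO and 2023 CPM in WT (1.285, 1.18 to 1.40). In the sub-cluster of 47 KO and 58 WT cells it had 3366 CPM in KO and 3027 CPM in WT (1.11, 0.954 to 1.295), and in that of 10 KO and 24 WT cells 1608 CPM in KO and 1566 CPM in WT (1.03, 0.884 to 1.19), and both intervals hold 1. Atp6v1a was lower in the first 3 of these, with ratios of 0.776 (0.620 to 0.971), 0.815 (0.703 to 0.946) and 0.716 (0.571 to 0.897), and its intervals held 1 in the other two.

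The cathepsin sum differed between the sub-clusters. It was 12650 CPM in KO and 12800 CPM in WT in the Lyve1-high sub-cluster (0.988, 0.959 to 1.02). In the sub-cluster with most microglial RNA it was 16570 CPM in KO and 15540 CPM in WT (1.07, 1.05 to 1.08), and in that of 86 KO and 57 WT cells 13630 CPM in KO and 12580 CPM in WT (1.08, 1.046 to 1.12). In that of 47 KO and 58 WT cells the ratio was 0.955 (0.888 to 1.03), and in that of 10 KO and 24 WT cells 0.829 (0.771 to 0.890). The pooled ratio of 1.12 lay above all 5, and the sub-clusters held unequal shares of the cells of each library.

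Few of the other lysosomal genes passed the threshold. From a list of 104 further genes of lysosomal enzymes, their inhibitors, sorting, transport and regulation, 89 were measured in microglia-like cells, of which 0 were higher and 1 was lower, beside 1.22% and 1.39% of all genes there. That gene was Gla, lysosomal alpha-galactosidase, with 13.4 CPM in KO and 23.9 CPM in WT (0.560, 0.501 to 0.625). In the macrophage class 86 were measured, with 3 higher and 3 lower, which is a smaller share than the 5.28% and 8.45% of all genes. Cst3, a secreted inhibitor of cysteine cathepsins, had 26670 CPM in KO and 18970 CPM in WT (1.41, 1.39 to 1.42), Ctns, the cystine exporter, 33.5 CPM in KO and 24.1 CPM in WT, and Gnptg, a subunit of the enzyme that starts the mannose-6-phosphate tag, 43.8 CPM in KO and 32.0 CPM in WT. Galc, galactosylceramidase, had 62.4 CPM in KO and 84.5 CPM in WT, Serpinb6a, a protease inhibitor, 103 CPM in KO and 142 CPM in WT, and Tfec, of the TFEB family, 17.9 CPM in KO and 25.2 CPM in WT. In microglia-like cells Cst3 had 38250 CPM in KO and 33690 CPM in WT (1.135, 1.133 to 1.138), within the threshold. Microglial markers were higher in the KO cells of the macrophage class, and their part in the ratio of Cst3 there was not tested.

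T cell-like cells were the class in which most lysosomal genes were higher in KO. The class held 242 KO and 197 WT cells, with median depths of 4125 and 6136 UMIs. Of 38 measured members, 30 were higher and 0 lower, beside 20.4% of 6516 measured genes higher and 8.38% lower. The median log2 ratio was 0.58 over the members and 0.06 over all genes. Summed, the members had 8675 CPM in KO and 5355 CPM in WT (1.62, 1.57 to 1.67). All roles took part: 10 of 10 measured cathepsins, 5 of 5 membrane proteins, 3 of 4 glycosidases, 4 of 6 lipid and other hydrolases, Tfeb and 7 of 12 pump genes were higher.

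Cd68 had 138 CPM in KO and 64.4 CPM in WT T cell-like cells (2.14, 1.64 to 2.80), the largest ratio of the class. Grn had 241 CPM in KO and 123 CPM in WT (1.96, 1.62 to 2.39), Ctss 1607 CPM in KO and 847.5 CPM in WT (1.90, 1.76 to 2.04), and Ctsd 1543 CPM in KO and 969 CPM in WT (1.59, 1.48 to 1.71). All 4 intervals lay above 1. The lowest were Atp6v1d with 51.6 CPM in KO and 58.4 CPM in WT (0.884, 0.628 to 1.24) and Lipa, lysosomal acid lipase, with 26.2 CPM in KO and 27.3 CPM in WT (0.960, 0.583 to 1.58). Glb1, Ppt1, Atp6v1b2, Atp6v1e1, Atp6v1h and Atp6ap2 were also within the 25% threshold, and Ctsk, Mcoln1, Gaa and Smpd1 were not measured.

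Microglial marker RNA in the T cell-like class differed by a similar factor. The microglial markers, 10 of 10 detected in both libraries, summed to 2434 CPM in KO and 1438 CPM in WT (1.69, 1.60 to 1.79), or 23.8% and 14.5% of their level in microglia-like cells. The macrophage markers summed to 203 CPM in KO and 56.85 CPM in WT, with 1 of 10 at 0 in KO and 2 of 10 at 0 in WT. T cell markers were slightly lower, with 4519 CPM in KO and 5227 CPM in WT. With each cell thinned to 1500 UMIs, which left out 5 KO and 8 WT cells below that depth, the summed ratio was 1.19 and 6 of 17 measured members were higher. Doublet calls removed 3.37% of the KO and 0.849% of the WT cells that had passed the filters, against expected shares of 14.1% in KO and 13.3% in WT, and doublets that were missed were not tested for.

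**Figure D3:**
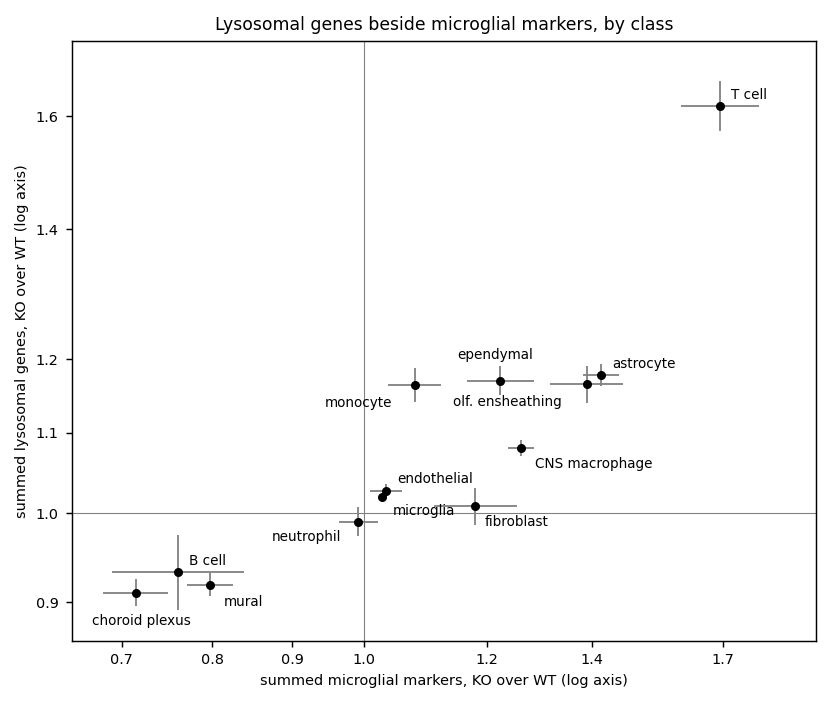
Ratio of KO over WT for the summed lysosomal genes, against the same ratio for the summed microglial markers, 1 point per cell class, on log axes, with 95% counting intervals as bars. The 12 classes other than microglia-like cells lie on the same side of 1 on both axes, from choroid plexus-like cells (members 0.910, markers 0.715) to T cell-like cells (members 1.62, markers 1.69). Intervals hold 1 on both axes for neutrophil-like cells and on the member axis for fibroblast-like cells.

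The same held across the classes. In each of the 12 classes other than microglia-like cells the summed members and the summed microglial markers were on the same side of 1, and Spearman's rho over these 12 classes was 0.93. Counting error did not settle the side in neutrophil-like cells (markers 0.992, 0.964 to 1.02, members 0.990, 0.974 to 1.007). Nor did it for the members in fibroblast-like cells (1.008, 0.986 to 1.03). The points share the same 2 libraries, so this is a description. Astrocyte-like cells had a marker ratio of 1.42 (1.38 to 1.46) and a member ratio of 1.18 (1.16 to 1.19), but in the 116 KO and 34 WT cells with no microglial marker UMI the member ratio was 0.760 (0.681 to 0.851). Choroid plexus-like cells had a marker ratio of 0.715 (0.681 to 0.750) and a member ratio of 0.910 (0.896 to 0.925), and 0.835 (0.767 to 0.909) in the 55 KO and 32 WT cells with no marker UMI. Ependymal-like cells had 1.22 (1.16 to 1.29) for the markers and 1.17 (1.15 to 1.19) for the members, and 1.38 (1.24 to 1.54) in the 108 KO and 19 WT cells with no marker UMI. Leaving out the cells with a microglial UMI thus turned the direction in astrocyte-like cells and kept it in choroid plexus-like and ependymal-like cells. In endothelial-like cells the member ratio went from 1.027 to 0.967 (0.920 to 1.02). The 178 KO and 102 WT cells left there had medians of 4038 and 3944.5 UMIs. In mural-like cells the ratio went from 0.919 to 0.974 (0.914 to 1.04). The astrocyte-like cells left were shallow, with medians of 736.5 UMIs in KO and 726.5 in WT. In ependymal-like cells the medians were 938 and 912. A shallow cell can show 0 marker UMIs and still hold microglial RNA. How much of each class's difference comes from microglial RNA was not tested.

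In the remaining immune classes the calls of members were close to or below the background. In monocyte-like cells, 5 of 39 measured members were higher and 0 lower, beside 12.3% of genes higher and 16.8% lower. Their 2 highest were Grn, with 511 CPM in KO and 358 CPM in WT (log2 0.50), and Atp6v0c (log2 0.47), and the lowest Atp6v1e1 (log2 -0.30) and Atp6v1c1 (log2 -0.19). The 8 monocyte markers summed to 6331 CPM in KO and 2859 CPM in WT monocyte-like cells, and their part in these ratios was not tested. In neutrophil-like cells 1 of 40 was higher and 5 lower, beside 14.5% and 28.4% of genes, with Tfeb at 35.3 CPM in KO and 76.5 CPM in WT (0.461, 0.321 to 0.648) and Atp6v1a (log2 -0.52) lowest, and Atp6ap1 (log2 0.44) and Ctss (log2 0.22) highest. Microglial markers were at high levels in both classes, with 4166 CPM in KO and 3865 CPM in WT monocyte-like cells and 5785 CPM in KO and 5832 CPM in WT neutrophil-like cells. In B cell-like cells, 77 in KO and 151 in WT, 3 of 35 were higher and 8 lower, beside 14.2% and 29.6% of genes, with Cd68 (log2 0.40) and Atp6v1e1 (log2 0.345) highest and Hexa (log2 -0.84) and Ctsh (log2 -0.725) lowest. The median log2 ratio over all genes was -0.11 in B cell-like cells, and with that shift taken out the summed member ratio was 1.003 instead of 0.933. In neutrophil-like cells the median over all genes was -0.10.

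The glial and ventricular classes differed by cell type. In astrocyte-like cells 11 of 41 members were higher and 2 lower, beside 12.1% and 11.1% of genes. Grn there had 326 CPM in KO and 213 CPM in WT, and Ctss 2261 CPM in KO and 1536 CPM in WT, whereas Gaa (acid alpha-glucosidase) and Smpd1 were lower (log2 -0.45 each). In olfactory ensheathing glia-like cells 9 of 40 were higher and 0 lower, beside 8.57% and 10.4%, with Ctss (log2 0.46) and Ctsd (log2 0.38) highest and Glb1 (log2 -0.22) and Atp6v1h (log2 -0.19) lowest. In ependymal-like cells 8 of 41 were higher and 0 lower, beside 4.96% and 5.43%, with Ctss (log2 0.64) and Grn (log2 0.51) highest and Tfeb (log2 -0.30) and Smpd1 (log2 -0.17) lowest. In choroid plexus-like cells 0 of 41 were higher and 3 lower, beside 2.97% and 17.5%, with Glb1 (log2 0.14) and Mcoln1 (log2 0.10) highest and Cd68 (log2 -0.49) and Man2b1 (log2 -0.40) lowest. The median log2 ratio over all genes was below 0 there too, at -0.12, and with that shift taken out the summed member ratio was 0.986 instead of 0.910. Without the added 10 CPM the median over all genes was -0.16, and taking that out gave 1.02, so the side of 1 depended on how the shift was measured.

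In astrocyte-like, olfactory ensheathing glia-like and ependymal-like cells the share of members called higher was above that of all genes, and the microglial markers were higher in KO as well (ratio 1.39, 1.32 to 1.47, in olfactory ensheathing glia-like cells). Thinning to 1500 UMIs also left out shallower cells, 67 of 210 in KO and 101 of 423 in WT among olfactory ensheathing glia-like cells and 554 of 905 in KO and 194 of 369 in WT among ependymal-like cells. In what remained the summed ratio of olfactory ensheathing glia-like cells was 0.927 instead of 1.165, and that of ependymal-like cells 0.947 instead of 1.17.

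The vascular and stromal classes showed few differences. In endothelial-like cells 0 of 41 members were higher and 1 lower, beside 1.86% and 1.58% of genes. That member was Atp6v0a1, the pump's a1 subunit, with 106.5 CPM in KO and 136 CPM in WT (0.784, 0.740 to 0.830); Ctss (log2 0.26) and Lamp2 (log2 0.22) were highest, and Ctsf (log2 -0.17) stood next to Atp6v0a1 at the low end. In mural-like cells 0 of 42 were higher and 1 lower, beside 4.14% and 4.86%, with Ctsk (log2 0.245) and Gaa (log2 0.17) highest and Tfeb (log2 -0.34) and Ctsb (log2 -0.31) lowest. The summed ratio of mural-like cells was 0.919, and 1.14 with called doublets kept. In fibroblast-like cells 3 of 42 were higher and 3 lower, beside 9.05% and 10.6%, with Ctsc (log2 0.55) and Ctss (log2 0.51) highest. Ctsk, whose top class this was, had 91 UMIs in KO and 117 in WT fibroblast-like cells, or 34.9 CPM in KO and 71.3 CPM in WT (0.491, 0.369 to 0.651), and Gaa was next lowest (log2 -0.43). The 7 fibroblast markers summed to 2106 CPM in KO and 3327 CPM in WT cells of this class, and their part in the ratio of Ctsk was not tested.

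**Figure D4:**
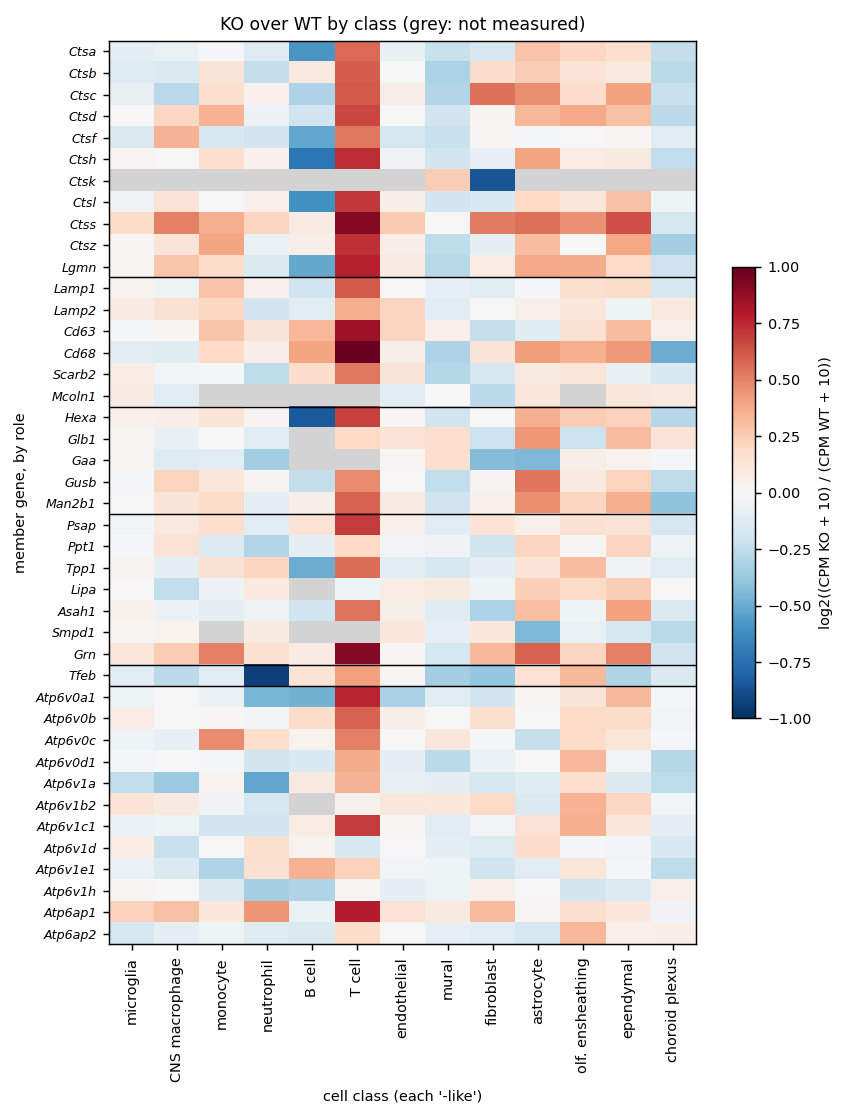
Log2 of (CPM + 10) in KO over (CPM + 10) in WT for each lysosomal gene (rows, by role) in each of the 13 cell classes (columns), with members not measured in grey. The T cell-like column is high for 30 of 38 measured members, and the Ctss row is above 0 in 11 of 13 classes. The share of all genes above 0 in as many classes is not given.

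Read along the genes, Ctss recurred on the high side. It lay above 0 in 11 of 13 classes, its counting interval lay above 1 in 10, and it was called higher in 7. Its exceptions were mural-like cells, with 939 CPM in KO and 943 CPM in WT, and choroid plexus-like cells, with 705.5 CPM in KO and 793 CPM in WT (0.890, 0.838 to 0.945). Microglial markers were lower in KO in both exceptions (ratios 0.797 and 0.715), but also in B cell-like cells (0.761), where Ctss was above 0. In astrocyte-like cells Ctss stood at 44.8% of its microglial level in KO and 34.5% in WT. The microglial markers stood there at 39.2% and 28.4%. The part of microglial RNA in the ratios of Ctss was not tested. Grn was above 0 in 11 classes and called higher in 5. Atp6ap1 was above 0 in 11 classes, with an interval above 1 in 6. No gene was as regular at the low end. Atp6v1a was above 0 in 4 classes, with an interval below 1 in 4, and was called lower in 2 and higher in 1. Tfeb was called lower in 3 classes and higher in 2, with an interval below 1 in 6. Atp6v0d1 was above 0 in 2 classes, yet was called higher in 2 and lower in 0, and Atp6v0a1 was called lower in 3 and higher in 2. The share of all genes that reach such counts over the classes is not given, so these counts have no background. All classes come from the same pair of libraries, so they are not independent views.

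Disease-associated microglia are a state in which lysosomal and lipid-handling genes such as Cd63 and Ctsb are known to be induced. Sub-clusters of microglia-like cells were made without the lysosomal genes, so their levels there are a description of the state, not a test. At the coarser resolution, set as the main one, the sub-cluster highest in the disease-associated markers held 620 KO and 358 WT cells, with those markers at 8332 CPM in KO and 18000 CPM in WT. Against the other microglia-like cells 1 member (Tfeb) was higher and 0 lower in KO, beside 2.43% and 2.0% of genes, whereas 10 were higher and 1 lower in WT, beside 5.26% and 6.03%. The summed ratio was 0.997 (0.993 to 1.00) in KO and 1.18 (1.18 to 1.19) in WT. With 1 member called higher in KO, no more than that 1 could be shared, and Tfeb was not among those called in WT. The overlap over all genes is not given here.

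At the finer resolution, the alternative, a sub-cluster of 138 KO and 255 WT cells had the disease-associated markers at 26000 CPM in KO and 21560 CPM in WT, against 4196 and 3953 CPM in the other microglia-like cells of each library. In it 10 of 41 members were higher and 1 lower than in the other microglia-like cells of the KO library, and the same counts held in the WT library. The background was 6.38% higher and 9.41% lower in KO, and 5.48% higher and 9.03% lower in WT. The ratio of the summed members, inside the sub-cluster over outside it, was 1.19 (1.185 to 1.203) in KO and 1.22 (1.214 to 1.227) in WT.

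Of the 10 higher members, 9 were shared: Ctsb, Ctsd, Ctsz, Cd63, Cd68, Gaa, Lipa, Atp6v0c and Atp6v1a. The overlap over all measured genes is not given beside it, so this count has no background. Cd63 had 1055 CPM in the state and 474 CPM outside it in KO, and 893.5 CPM in the state and 449 CPM outside it in WT. Ctsb was 1.75-fold higher in KO and 1.69-fold higher in WT, Lipa 1.62-fold and 1.548-fold, Ctsd 1.46-fold and 1.47-fold, and Atp6v0c 1.52-fold in both. Ctsf was lower in both, at 0.752 in KO and 0.746 in WT, and Lgmn leaned the same way at 0.831 and 0.812. Ctss did not mark the state, at 0.960 in KO and 1.04 in WT, although it was the most different of the abundant members between the libraries. No test of a difference between the libraries could be made.

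The lysosomal profile of the state in KO thus depended on the resolution of the sub-clusters. In WT 10 members were higher and 1 lower at both resolutions, with Atp6v1b2 higher at the coarser one and Ctsl at the finer one in its place. With the stricter cell filter, the sub-cluster highest in these markers gave a summed ratio of 1.06 in KO and 0.9555 in WT.

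**Figure D5:**
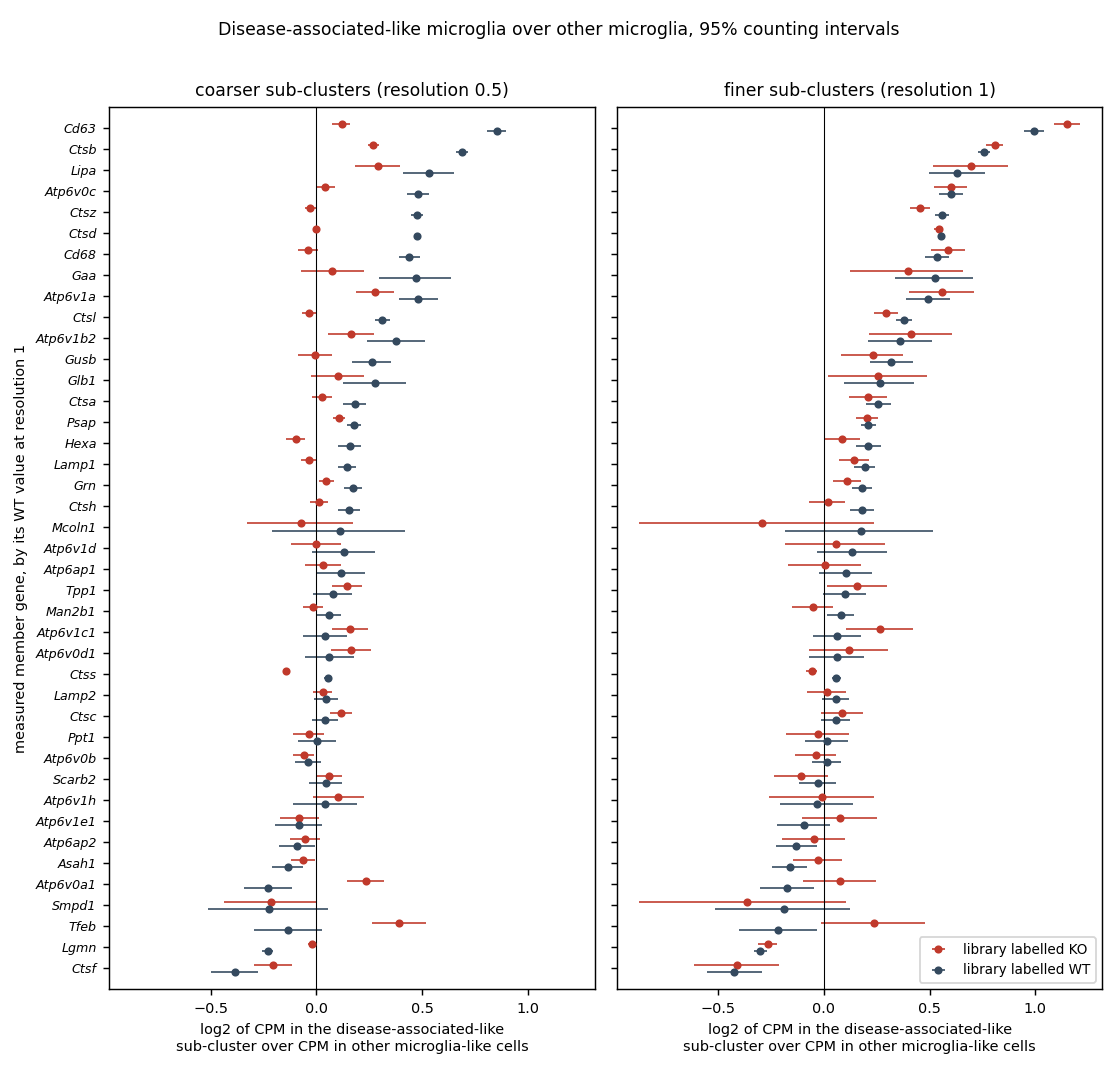
Log2 of the level (CPM) in the disease-associated-like sub-cluster over that in the other microglia-like cells for each measured lysosomal gene, with 95% counting intervals as bars, KO and WT libraries in separate colours, at the coarser (left) and the finer (right) resolution of sub-clustering. At the finer resolution both libraries show Cd63 highest (2.22-fold in KO, 1.99-fold in WT) and Ctsf low (0.752 and 0.746).

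Some members overlap neighbouring genes in the annotation. By the GENCODE annotation, exons of Ctsa, Ctsb, Ctsl, Ctsz, Lamp1, Hexa, Ppt1, Grn, Atp6v0b, Atp6v1e1 and Atp6v1h overlap those of a gene on the other strand, and Glb1 overlaps Tmppe on its own strand, so reads of Glb1 and Tmppe cannot always be told apart.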

How the data were processed

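The authors deposited 1 matrix of raw UMI counts per library, in the Cell Ranger layout of genes by barcodes; per the submitters' processing notes, Cell Ranger 7.0.1, STAR and Seurat 3.1.1 were used with GRCm38 (mm10), and the parameters are not given in the sources used here. From these counts, cells under 300 genes or 500 UMIs, or over 10% mitochondrial UMIs, were dropped, and Scrublet calls were removed per library in scanpy 1.11.5. That left 17064 KO and 16460 WT cells. Both libraries were clustered together (2000 variable genes, 30 components, 15 neighbours, Leiden resolution 1, the lysosomal genes left out), with no batch correction, and clusters were named from fixed markers. The naming rule was relaxed after the clusters were seen. Sub-clusters used resolution 0.5, with 1 as the alternative. UMIs were summed per class and library, since cells are not replicates. With 1 library per group no test was possible. Poisson and conditional Clopper-Pearson intervals (scipy 1.17.1) cover counting error only. The counting script was tested on simulated counts with known changes.

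The 42 members, the 104 other lysosomal genes and the markers were chosen with earlier results of these data known. Genes are named by a rule: in microglia-like and CNS-associated macrophage-like cells the 10 members with the most CPM, and every member past the 25% threshold or, where fewer than 3 passed, the 3 at that end; in other classes the 2 highest and 2 lowest by log2 ratio. Genes compared across classes, roles and sub-clusters beyond that rule were chosen after their values were seen, as were the alternatives that leave out mixed sub-clusters or cells with a microglial marker UMI, or centre ratios with 10 CPM added. Promoters come from RefSeq (GRCm38.p6). Oligodendrocyte-like cells (14 in KO, 16 in WT) and platelet-like cells (33 in KO, 295 in WT) were too few to describe.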

Additional observations from a re-analysis of the deposited data

Results flagged for a closer look

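In 9 genes, cell classes differed in the direction of KO over WT, each past the 25% threshold with a counting interval that excludes 1. The same count over all genes is not given, so this one has no background. Calls were frequent over all measured genes, with 20.4% higher in T cell-like cells and 29.6% lower in B cell-like cells. Ctsf, Tpp1, Tfeb and Atp6v1a were also past the threshold in both directions, but in these the intervals held 1 for every class of one direction. The differences between classes were not tested, since each group is 1 library. Microglial marker RNA was higher in KO in T cell-like, astrocyte-like, olfactory ensheathing glia-like, ependymal-like and monocyte-like cells and lower in B cell-like and choroid plexus-like cells. Its ratio was 0.992 (0.964 to 1.02) in neutrophil-like and 1.03 (1.01 to 1.06) in endothelial-like cells, where Atp6v0a1 was lower. The part of microglial RNA in these directions was not tested.

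The log2 ratio of Ctsa, a carboxypeptidase that protects beta-galactosidase, was 0.57 in T cell-like and -0.58 in B cell-like cells. For Ctsh, an aminopeptidase, it was 0.74 in T cell-like, 0.39 in astrocyte-like and -0.725 in B cell-like cells. Ctsl gave 0.70 in T cell-like and -0.60 in B cell-like cells. Ctsz gave 0.39 in monocyte-like, 0.73 in T cell-like, 0.39 in ependymal-like and -0.34 in choroid plexus-like cells. Lgmn gave 0.77 in T cell-like, 0.38 in astrocyte-like, 0.37 in olfactory ensheathing glia-like and -0.51 in B cell-like cells.

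Among the membrane proteins Cd68 gave 0.99 in T cell-like, 0.42 in astrocyte-like, 0.36 in olfactory ensheathing glia-like, 0.42 in ependymal-like and -0.49 in choroid plexus-like cells. Of the glycosidases, Hexa gave 0.685 in T cell-like, 0.36 in astrocyte-like and -0.84 in B cell-like cells, and Man2b1 0.59 in T cell-like, 0.47 in astrocyte-like, 0.36 in ependymal-like and -0.40 in choroid plexus-like cells. The pump subunit Atp6v0a1 gave 0.76 in T cell-like, 0.32 in ependymal-like, -0.45 in neutrophil-like and -0.32 in endothelial-like cells.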

How the results depend on the processing

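No paired analysis was possible because each group is 1 library. Neither library can be left out, and counting intervals miss the spread between mice. Of 164 recomputed summary values, 131 kept their direction and size, 28 moved by more than counting error and 5 changed sides of 1; of 482 values of single members and of other classes, 404, 64 and 14 did. The cause of these shifts was not tested.

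In microglia-like cells the summed ratio of 1.019 was 1.038 with the stricter cell filter, 1.026 with no cell filter, 1.023 with doublets kept, 1.036 with clusters at resolution 0.5, 1.027 with lysosomal genes kept in the clustering, 1.033 with cells named by marker UMIs, 1.011 centred on the median gene without the added 10 CPM, 1.015 centred with it (an alternative chosen after seeing the data), and 1.024 thinned to 1500 UMIs, so its direction held in these. In the macrophage class the ratio of 1.08 was 1.093 with the stricter filter, 1.065 at resolution 0.5 and 1.028 thinned, and it changed sides to 0.976 with cells named by marker UMIs, where Ctsf had a log2 ratio of -0.12, and to 0.995 without mixed sub-clusters. There 1 member instead of 2 was higher with no filter, doublets kept, resolution 0.5 or a pseudocount of 50, and instead of 1, 0 were lower with the stricter filter or that pseudocount, 2 with cells named by marker UMIs or without mixed sub-clusters, and 3 thinned. In T cell-like cells the ratio of 1.62 was 1.52 with no filter, 1.54 centred (1.55 with 10 CPM added) and 1.19 thinned, with 6 members higher thinned and 1 lower at a minimum of 20 UMIs.

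For the disease-associated-like sub-cluster over other microglia-like cells, the ratios were 1.194 in KO and 1.22 in WT at resolution 1, and 1.06 in KO and 0.9555 in WT with the stricter filter. Elsewhere the summed ratio changed sides in B cell-like cells (1.005 centred, 1.003 centred with 10 CPM added, 1.059 thinned), endothelial-like cells (0.9945 stricter, 0.966 named by marker UMIs, 0.967 with no microglial marker UMI), mural-like cells (1.11 with no filter, 1.14 with doublets kept), astrocyte-like cells (0.760 with no marker UMI), olfactory ensheathing glia-like cells (0.9655 named by marker UMIs, 0.927 thinned), ependymal-like cells (0.947 thinned) and choroid plexus-like cells (1.017 centred, but 0.986 centred with 10 CPM added). Thinning also leaves out cells under 1500 UMIs. Fewer than 10 members were measured in cells with no marker UMI in B cell-, T cell-, fibroblast- and olfactory ensheathing glia-like cells, and in T cells named by marker UMIs, so no value is given for these.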
